A study of Mus musculus with 28 samples.

Results

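A set of 141 probe sets, on 131 genes, was far above wild type in kidneys lacking Hoxa11 and Hoxd11 at E12.5 and E13.5 and below wild type at E16.5. They were chosen from 34945 probe sets with 1 gene symbol, which stand for 18193 genes. The rule floored the signal, took log2 and averaged the 2 samples of a group. It asked for a null minus wild type difference of at least 2 at each of E12.5 and E13.5, and of at most -1 at E16.5. The size and the direction of these 3 differences therefore chose the members, and they are given below as a description with no test.

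RNA of whole mouse kidneys was measured in 14 samples, each hybridised to both designs of an Affymetrix mouse array set (430A and 430B). The groups, with 2 samples each, were Hoxa11, Hoxd11 compound null kidneys of stage E12.5, E13.5 or E16.5 (days of embryonic development), wild type kidneys of the same stages, and wild type adult kidneys. A null sample was both kidneys of a single targeted embryo whose strain is not stated, and wild type embryonic samples were pooled kidneys of CD-1 embryos. Both genotypes of embryo had 30 ng of RNA amplified by 2 rounds of in vitro transcription, while adult samples started from 100 ng of RNA extracted by another reagent. The nulls thus differed from the wild type samples in pooling, and perhaps in strain, as well as in genotype. Whole kidneys mix many cell types, so fewer cells of a type and less RNA per cell cannot be told apart in any value below.

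Hoxa11 and Hoxd11 encode paralogous homeodomain transcription factors of the posterior Hox clusters. In the metanephros they are active in the mesenchyme and are needed for its signalling to the ureteric bud, so that kidneys without both genes are small and branch poorly. Transcription factors, chromatin regulators, splicing factors and signalling proteins, the classes to which most members belong, are broadly used in embryonic cells and set which genes a cell transcribes and how its transcripts are processed.

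The Hoxa11 probe set read 398 and 500 in null against 3431 and 2321 in wild type at E12.5, and 352 and 422 in null against 2353 and 2117 in wild type at E13.5. At E16.5 it read 211 and 216 in null against 2009 and 1940 in wild type, so that null and wild type samples did not overlap at any stage. The Hoxd11 probe set differed by -0.03 log2 at E12.5, 0.16 at E13.5 and -0.09 at E16.5, and did not separate the genotypes. Its mean log2 signal was not above the design's median in any group. Nothing is therefore read from it on Hoxd11 RNA in the nulls. Nephron progenitor markers, 12 of 13 measured, summed to signals of 41152 to 62167 in null and 16085 to 30884 in wild type embryonic kidneys. In the adult they summed to 7267 and 11281. The list's median differences were 0.50 at E12.5, 0.63 at E13.5 and 0.04 at E16.5. At E12.5 and E13.5 Cited1 (-3.05 and -3.52) and Crym (-2.20 and -2.03) were lower in null, while Sall1 (1.57 and 3.13) and Wt1 (1.16 and 1.60) were higher. Proximal tubule markers, all 14 measured, summed to 360136 and 308183 in the adult, against 4147 to 4653 in wild type kidneys at E12.5.

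Of 684 probe sets higher in null by at least 2 at both early stages, the 141 members were 20.6%. Another 317 lay between -1 and 1 at E16.5 and 226 were still higher in null by at least 1. Over all 34945 probe sets, the share with a difference of -1 or less at E16.5 was 17.0%, the share meeting the E12.5 threshold 3.76%, the share meeting the E13.5 threshold 3.37%, and the share meeting the whole rule 0.403%. The mirror pattern, lower by at least 2 early and higher by at least 1 at E16.5, was met by 1 of 33 probe sets that were lower early. A further 104 probe sets with no symbol or several symbols met the rule and are not members.

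The members' differences had medians of 3.02 at E12.5 (2.00 to 5.13), 2.60 at E13.5 (2.00 to 5.57) and -1.63 at E16.5 (-5.94 to -1.001) on the log2 scale. The reversal, defined as the E16.5 difference minus the mean of the E12.5 and E13.5 differences, had a median of -4.74 (-9.24 to -3.19). In both null samples the signal lay above both wild type samples for all 141 members at E12.5 and for 139 at E13.5, and below both at E16.5 for 134. The same separations were met by 29.6%, 25.9% and 33.7% of all named probe sets. All 3 held for 132 members, against 3.66% of all named probe sets. Since the rule used these samples, nothing is read from the gap between these shares.

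Both genotypes changed level between the stages. The members' median log2 level was 10.9 in the E12.5 nulls and 10.8 in the E13.5 nulls, against 7.57 and 8.01 in wild type kidneys, and at E16.5 it was 9.27 in null and 11.1 in wild type. Between E13.5 and E16.5 the null level had a median step of -1.53, was lower at E16.5 for 140 members and by at least 1 for 115. Over the same interval the wild type level had a median step of 3.11, and was higher at E16.5 by at least 1 for 139 members. The median steps ran in opposite directions, and the median step was larger in wild type. The rule's thresholds at E13.5 and E16.5 force the null step below the wild type step in every member. No share over all probe sets is given, and nothing is read from these steps or counts. In wild type adult kidneys the median was 7.76. Every member was lower in adult than in wild type E16.5 kidneys, 137 of them by at least 1 and with a median difference of -3.27. The wild type E16.5 samples took part in choosing the members, which favours high values there. No share over all probe sets is given, so nothing is read from the adult comparison.

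Many of the low values are bounds. The floor, the 20th percentile of a design, was a signal of 86.1 on 430A and 148.1 on 430B. No wild type sample was at the floor for 72 members at E12.5 and for 83 at E13.5. No null E16.5 sample was there for 125 members, and no adult sample for 70. Even 1 floored sample in the lower group makes a difference a bound. Both wild type samples were at the floor for 34 members at E12.5 and for 19 at E13.5, both null samples at E16.5 for 1, and both adult samples for 29, so that differences against these groups are at least as large as printed. All 141 members passed the filter on low values used for the tests further on, but they could do so through any single group in which they were high.

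**Figure D1:**
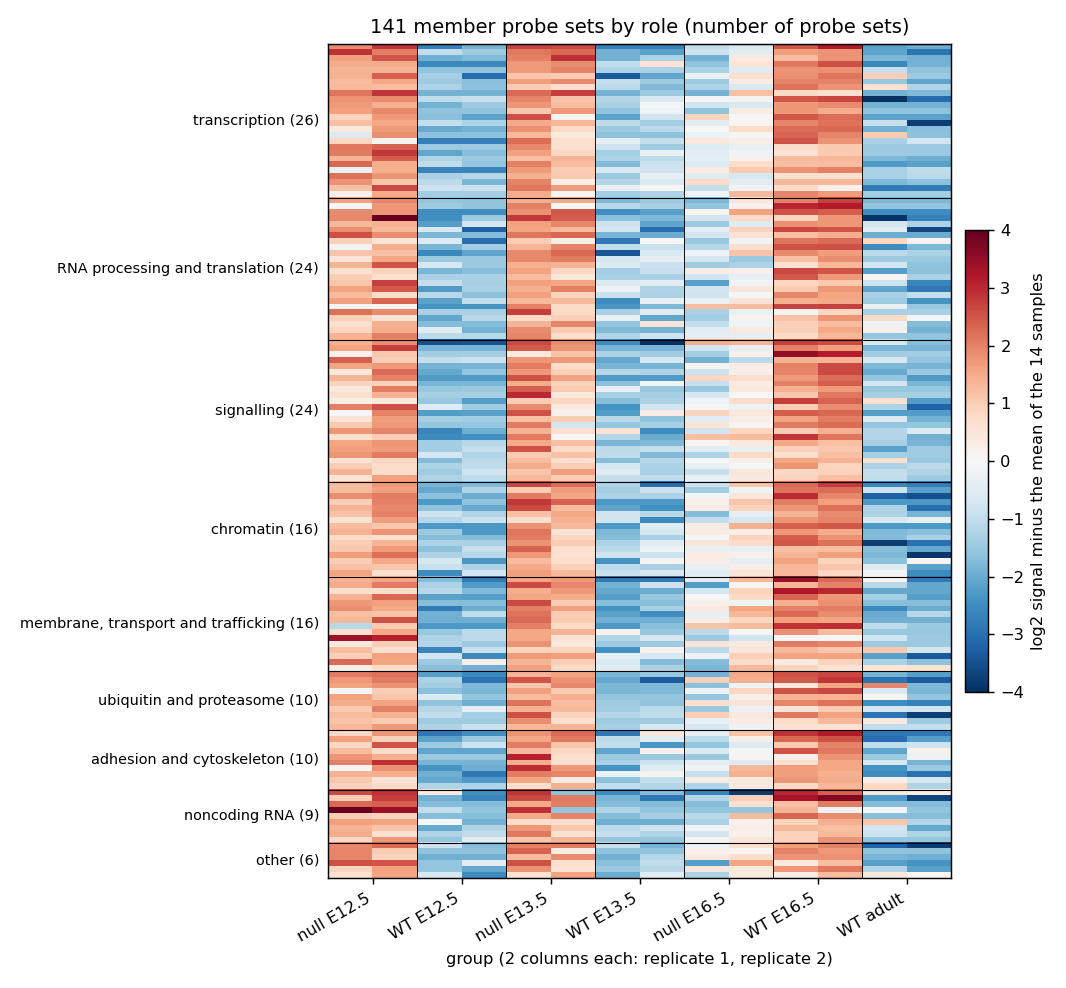
Log2 signal of the 141 member probe sets (rows, grouped by role) in the 14 samples (columns, 2 per group), minus each row's mean over the samples; red is above and blue below that mean. The null columns at E12.5 and E13.5 and the wild type columns at E16.5 are mostly red, while the wild type early columns and the adult columns are mostly blue, and the null E16.5 columns lie near the row means.

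Quantities of the arrays themselves moved with genotype and stage and stand beside every difference above. On 430A the actin 3' to 5' signal ratio, which grows with RNA degradation or short amplified products, was 1.26 to 2.27 in null and 2.88 to 4.13 in wild type embryonic samples. The Gapdh ratio at E16.5 was 2.16 and 1.68 in null, against 3.31 and 4.25 in wild type. The signal of the middle 18S ribosomal RNA probe set on 430A was 7097 and 2204 in null at E16.5, against 30399 and 25310 in wild type, and lay between 939 and 5554 in all early samples. In the adult it was 41058 and 32588, although the members were low there. The part of these measures in the members' differences was not tested.

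Array medians over all named probe sets also differed. Null minus wild type was 0.47, 0.34 and 0.02 on 430A and -0.19, -0.25 and -0.48 on 430B, in the order of the 3 stages. The members' medians were 3.11, 2.60 and -1.57 on 430A and 2.92, 2.62 and -1.72 on 430B. Null and wild type arrays of a stage shared no scan day, and the null E16.5 arrays were scanned by themselves, 11 whole months after the last other scan. Genotype cannot be told apart from scan day.

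The 2 null E16.5 samples were unequal. On 430B replicate 1 was higher than replicate 2 in 8 of 82 members, with a median gap of -1.28 log2, and on 430A in 16 of 59, with a median gap of -0.45. Without null E16.5 replicate 1 the rule selected 101 probe sets and without null E16.5 replicate 2 it selected 186, with 97 and 138 of the 141 members among them. At E13.5 null replicate 1 was the higher in 51 of 59 members on 430A, by a median of 0.80. When every null sample had to pass the threshold against every wild type sample of its stage, 23 members remained, led by Zfp266, Hoxd3os1, Ttc3, Dyrk2, Epha7, Zfhx3, Rere, Nisch, Snw1 and Srrm1.

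**Figure D2:**
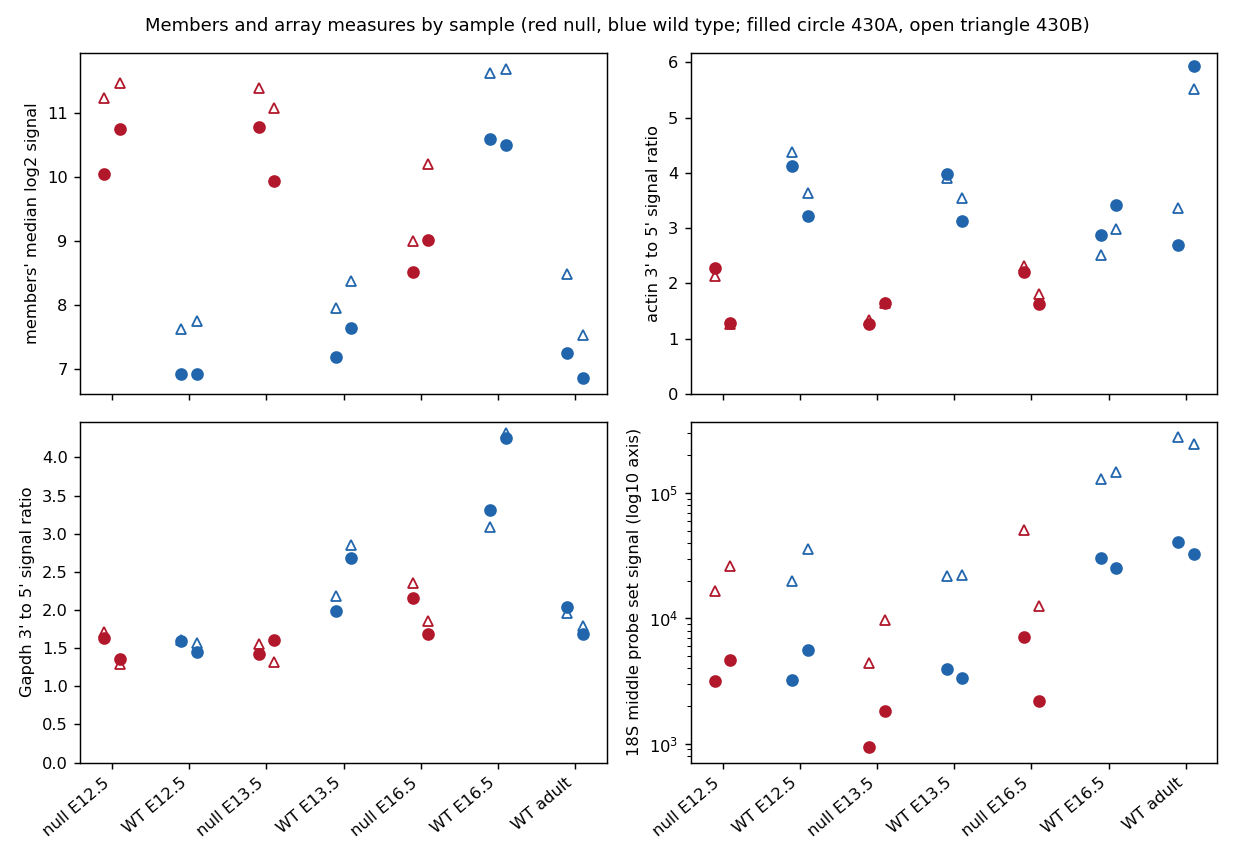
The members' median log2 signal, the actin and Gapdh 3' to 5' signal ratios and the 18S signal (log10 axis) in every sample, with null groups in red, wild type in blue, 430A as filled circles and 430B as open triangles. The actin ratio was at most 2.32 in every null sample, the members' median was highest in early null and wild type E16.5 samples, and the 18S signal was highest in wild type E16.5 and adult samples.

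The members by role were 26 probe sets of transcription factors and cofactors (23 genes), 24 of RNA processing and translation (23 genes), 24 of signalling (21 genes), 16 of chromatin regulators (15 genes), 16 of membrane, transport and trafficking proteins (16 genes), 10 of the ubiquitin and proteasome system (9 genes), 10 of adhesion and cytoskeleton (10 genes), 9 of noncoding RNAs (8 genes) and 6 others. Roles were assigned by hand after the members were known. Median reversals by role lay between -4.94 (noncoding RNA) and -4.43 (others). The rule bounds the reversal of every member, so nothing is read from how close these medians lie. The 10 genes with 2 member probe sets were Zfhx3, Xist, Gna13, Camkk2, Srrm1, Ttc3, Sox11, Bcl2, Kmt2e and Ssbp2.

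Zfp266, a zinc finger protein gene, had the largest reversal of an autosomal gene. Its probe set 1457913_at read 3631 and 7008 in null against 66.0 and 268 in wild type at E12.5, and 6327 and 6008 in null against 64.3 and 78.6 in wild type at E13.5. At E16.5 the readings were 488 and 655 in null against 5428 and 8820 in wild type. The groups were far apart at every stage, and the adult samples, at 216 and 248, were near the early wild type. The differences were at least 4.66, at least 5.38 and -3.61 log2.

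Among the other transcription members, Zfhx3 (1449947_s_at), a zinc finger homeobox factor, read 4936 and 2722 in null against 335 and 243 in wild type at E12.5, and 2841 and 3218 in null against 175 and 145 in wild type at E13.5. It then read 364 and 484 in null against 2115 and 2282 in wild type at E16.5. Gtf3c2 (1440307_at), a subunit of the general factor TFIIIC of RNA polymerase III, read 1749 and 3222 in null against 126 and 167 in wild type at E12.5, and 2296 and 4293 in null against 77.8 and 236 in wild type at E13.5. Its null samples at E16.5 were 87.4 and 744, which differ from each other by more than 2 log2 units, against 1317 and 1954 in wild type, and still did not overlap with them.

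Meis1 (1443260_at), a homeodomain cofactor of Hox proteins and a marker of renal stroma, was the single stromal marker among the members. It read 14125 and 17780 in null against 2210 and 1908 in wild type at E12.5, and 19260 and 22590 in null against 3085 and 2259 in wild type at E13.5. At E16.5 it read 2201 and 7361 in null against 23769 and 24195 in wild type, and the differences were 2.95, 2.98 and -2.57. The 17 stromal markers measured, of 18, had median differences of 1.14, 1.30 and 0.62, and their summed signal at E16.5 was 152916 and 156071 in null, against 81368 and 75771 in wild type. The stromal list as a whole was thus not lower in null at E16.5 where this Meis1 probe set was. Another Meis1 probe set, 1450992_a_at, differed by 2.10, 1.99 and only -0.34. In the tests further on, 1 of 2 other Meis1 probe sets was called lower late.

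Sox11, an SRY-box factor of progenitor cells, had 2 members. Probe set 1453125_at read 19030 and 20108 in null against 2691 and 2946 in wild type at E12.5, 20953 and 12091 in null against 2424 and 3450 in wild type at E13.5, and 5150 and 5846 in null against 30514 and 34816 in wild type at E16.5. Probe set 1436790_a_at read 1369 and 3670 in null against 333 and 321 in wild type at E12.5, 2534 and 1926 in null against 486 and 623 in wild type at E13.5, and 309 and 540 in null against 1009 and 671 in wild type at E16.5. Both probe sets kept the genotypes apart at each stage, with E16.5 differences of -2.57 and -1.01. The remaining transcription members included Sox4, Sox6, Foxp1, Foxn3, Meis2, Tle3, Sp1, Nfat5 and Trps1, and over the role the E16.5 difference ran between -3.61 and -1.01.

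The chromatin members ran between -2.99 and -1.01 at E16.5. Rere (1439159_at), a corepressor of the atrophin family, read 2868 and 3997 in null against 331 and 356 in wild type at E12.5, and 7599 and 5622 in null against 517 and 136 in wild type at E13.5. Its E16.5 readings were 658 and 2597 in null against 5814 and 8354 in wild type. Each pair of groups was separate, although the null E16.5 samples were widely spread.

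Tet2 (1438781_at), which oxidises methylated cytosine, read 1703 and 1528 in null against 119 and 33.9 in wild type at E12.5, 2514 and 1771 in null against 107 and 526 in wild type at E13.5, and 900 and 1932 in null against 3819 and 4090 in wild type at E16.5. Bptf (1456615_a_at), the largest subunit of the NURF remodelling complex, read 5260 and 5032 in null against 1255 and 992 in wild type at E12.5, 6645 and 4490 in null against 1098 and 947 in wild type at E13.5, and 1831 and 2719 in null against 5751 and 4984 in wild type at E16.5. Neither probe set had overlapping groups at any stage, and their E16.5 differences were -1.58 and -1.26. The 1 other tested Tet2 probe set, 1455300_at, differed by 1.13, 1.90 and 0.75 (reversal -0.77). It did not turn below wild type at E16.5. In the tests further on, 2 of 2 other Bptf probe sets were called lower late.

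Kmt2e, a SET domain protein of the trithorax group, was a member by 2 probe sets. The first, 1427236_a_at, read 1122 and 1475 in null against 155 and 85.6 in wild type at E12.5, 1876 and 630 in null against 123 and 261 in wild type at E13.5, and 526 and 494 in null against 1417 and 1185 in wild type at E16.5. The other, 1439108_at, read 2713 and 3964 in null against 865 and 271 in wild type at E12.5, 3290 and 2211 in null against 259 and 1491 in wild type at E13.5, and 1629 and 1068 in null against 4136 and 2522 in wild type at E16.5. Both had separate groups at every stage. Phf21a (1441145_at), a subunit of the LSD1 and CoREST histone demethylase complex, read 2542 and 1388 in null against 112 and 497 in wild type at E12.5, 2706 and 2078 in null against 462 and 545 in wild type at E13.5, and 637 and 1218 in null against 2088 and 1506 in wild type at E16.5. Its E16.5 difference of -1.01 was among the smallest admitted, and Rcor1, the CoREST scaffold of the same complex, was also a member.

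RNA processing members had a median E16.5 difference of -2.08 (-3.80 to -1.26). Snw1 (1459026_at), a spliceosome component, read 1607 and 2001 in null against 174 and 173 in wild type at E12.5, 1394 and 1455 in null against 117 and 187 in wild type at E13.5, and 78.9 and 710 in null against 2032 and 3440 in wild type at E16.5. Rbm39 (1438420_at), an SR-like splicing factor, read 7401 and 16360 in null against 1802 and 1016 in wild type at E12.5, 7816 and 7276 in null against 1978 and 1569 in wild type at E13.5, and 1056 and 1183 in null against 4375 and 7176 in wild type at E16.5. For both, the E16.5 null samples were the lower ones without overlap.

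Srrm1, a serine and arginine rich splicing coactivator, had 2 members. On 430B, 1459828_at read 1646 and 1763 in null against 98.2 and 408 in wild type at E12.5, 2102 and 2565 in null against 383 and 157 in wild type at E13.5, and 246 and 480 in null against 2406 and 2252 in wild type at E16.5. On 430A, 1420935_a_at read 973 and 785 in null against 50.9 and 43.8 in wild type at E12.5, 1433 and 365 in null against 40.7 and 153 in wild type at E13.5, and 50.4 and 179 in null against 236 and 376 in wild type at E16.5. The first was separate by a wider margin at E16.5, where the differences were -2.76 and -1.26.

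The further splicing members, shown because other probe sets of their genes went the other way, were Rnps1, Sf3b3 and Cdc40. Rnps1 (1437359_at), a factor of the exon junction complex, read 3080 and 2847 in null against 128 and 60.3 in wild type at E12.5, 2963 and 4711 in null against 109 and 186 in wild type at E13.5, and 900 and 2541 in null against 4904 and 4455 in wild type at E16.5. Sf3b3 (1430075_at), of the U2 particle, read 1679 and 5021 in null against 519 and 704 in wild type at E12.5, 4713 and 7077 in null against 922 and 991 in wild type at E13.5, and 838 and 2988 in null against 10799 and 10993 in wild type at E16.5. The samples of null and wild type did not overlap in either. Cdc40 (1457366_at), a second-step splicing factor, read 2659 and 4204 in null against 193 and 426 in wild type at E12.5, 2088 and 2058 in null against 46.1 and 685 in wild type at E13.5, and 694 and 1214 in null against 2254 and 2442 in wild type at E16.5.

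The signalling members began with Dyrk2 (1436918_at), a dual-specificity kinase with the largest printed early differences of all members, 5.13 and at least 5.57. It read 6802 and 9297 in null against 224 and 231 in wild type at E12.5, 15946 and 9469 in null against 450 and 41.4 in wild type at E13.5, and 7176 and 6585 in null against 17114 and 15710 in wild type at E16.5. The null samples thus stayed within one range while the wild type samples passed them. Epha7 (1451991_at), a receptor for ephrins, read 953 and 2134 in null against 35.7 and 31.2 in wild type at E12.5, 1709 and 1051 in null against 79.2 and 43.1 in wild type at E13.5, and 180 and 246 in null against 1266 and 974 in wild type at E16.5. Early wild type and adult samples were all at the floor, which makes its early differences at least 4.05 and at least 3.96.

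Growth factors among the members were Igf1 and Tgfb2, with E16.5 differences of -1.29 and -1.42, and the apoptosis inhibitor Bcl2 was a member by 2 probe sets with -3.93 and -2.87. Over the 24 signalling probe sets the E16.5 difference had a median of -1.62.

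In the ubiquitin and proteasome role, Ttc3 (1460077_at), a ubiquitin ligase, read 3592 and 3878 in null against 192 and 125 in wild type at E12.5, 2188 and 2636 in null against 243 and 302 in wild type at E13.5, and 234 and 2442 in null against 5021 and 5510 in wild type at E16.5. The E16.5 null samples were more than 3 log2 units apart, and both were below wild type. Dcaf7 (1439664_at), a WD repeat adaptor, read 3258 and 6459 in null against 715 and 1234 in wild type at E12.5, 4156 and 3925 in null against 608 and 750 in wild type at E13.5, and 557 and 1350 in null against 2208 and 3228 in wild type at E16.5. Skp2, the substrate receptor of an SCF ligase, was the member nearest the E16.5 threshold.

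Rtn4 (1435284_at), the reticulon also known as Nogo, led the membrane role. It read 2774 and 3193 in null against 318 and 127 in wild type at E12.5, 3166 and 3531 in null against 105 and 74.5 in wild type at E13.5, and 845 and 2675 in null against 11550 and 5163 in wild type at E16.5. Nisch (1433757_a_at), an integrin-binding endosomal protein, read 1168 and 1735 in null against 171 and 77.0 in wild type at E12.5, 2582 and 1540 in null against 110 and 231 in wild type at E13.5, and 86.8 and 443 in null against 1043 and 1632 in wild type at E16.5. Separation was complete in both, and one null E16.5 sample of Nisch was near the floor.

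Clcn3 (1416610_a_at), a chloride and proton exchanger of endosomes, read 196 and 864 in null against 29.0 and 25.2 in wild type at E12.5, 1711 and 734 in null against 10.3 and 129 in wild type at E13.5, and 933 and 1018 in null against 3124 and 3251 in wild type at E16.5. Copa (1437274_at), of the COPI vesicle coat, read 642 and 1222 in null against 34.0 and 204 in wild type at E12.5, 1225 and 1085 in null against 463 and 116 in wild type at E13.5, and 200 and 415 in null against 1503 and 1007 in wild type at E16.5. Neither had overlapping groups. Enah (1442223_at), an actin regulator in the adhesion role, read 3046 and 3194 in null against 306 and 163 in wild type at E12.5, 4854 and 4550 in null against 980 and 1266 in wild type at E13.5, and 624 and 3133 in null against 3773 and 3126 in wild type at E16.5, where one null sample lay within the wild type range.

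Ankhd1 (1419867_a_at), a protein of ankyrin repeats with a KH domain, read 1002 and 532 in null against 16.0 and 11.3 in wild type at E12.5, 1321 and 316 in null against 50.8 and 56.3 in wild type at E13.5, and 294 and 277 in null against 1021 and 857 in wild type at E16.5. All 4 early wild type samples were below the floor, so its early differences are at least 3.08 and at least 2.91.

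Noncoding RNAs held both Xist and Hoxd3os1. Hoxd3os1 (1460056_at) is transcribed opposite to Hoxd3 in the HoxD cluster, the cluster that carries one of the targeted genes. It read 5164 and 17919 in null against 683 and 408 in wild type at E12.5, 16196 and 11049 in null against 710 and 351 in wild type at E13.5, and 1153 and 5127 in null against 25329 and 33784 in wild type at E16.5. All samples of a stage were ordered by genotype, and the differences were 4.19, 4.74 and -3.59.

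Xist, the RNA that coats the inactive X chromosome of female cells, had the largest reversal of all members. Its probe set 1436936_s_at read 11018 and 13294 in null against 2188 and 325 in wild type at E12.5, and 12832 and 565 in null against 302 and 525 in wild type at E13.5. At E16.5 it read 281 and 123 in null against 14121 and 9191 in wild type. The second null E13.5 sample was close to the wild type samples there. The other member probe set, 1427262_at, read 4602 and 2727 in null against 132 and 38.3 in wild type at E12.5, 1938 and a reading under the floor in null against 112 and 9.5 in wild type at E13.5, and 6.5 and 20.5 in null against 654 and 220 in wild type at E16.5. Eif2s3y, a gene of the Y chromosome (1417210_at), read 3.7 and 1.1 in null against 3.2 and 638 in wild type at E12.5, 1.1 and 361 in null against 20.9 and 9.6 in wild type at E13.5, and 470 and 342 in null against 462 and 1451 in wild type at E16.5. Both null samples were under the floor for it at E12.5 and both above at E16.5, each null sample being 1 embryo, and the wild type E13.5 samples were low for Xist and for Eif2s3y. The 6 X-linked genes were Xist, Phf6, Ocrl, Amer1, Atp7a and Tmem164, and the other 125 genes lie on autosomes; the part of sex in their differences was not tested.

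**Figure D3:**
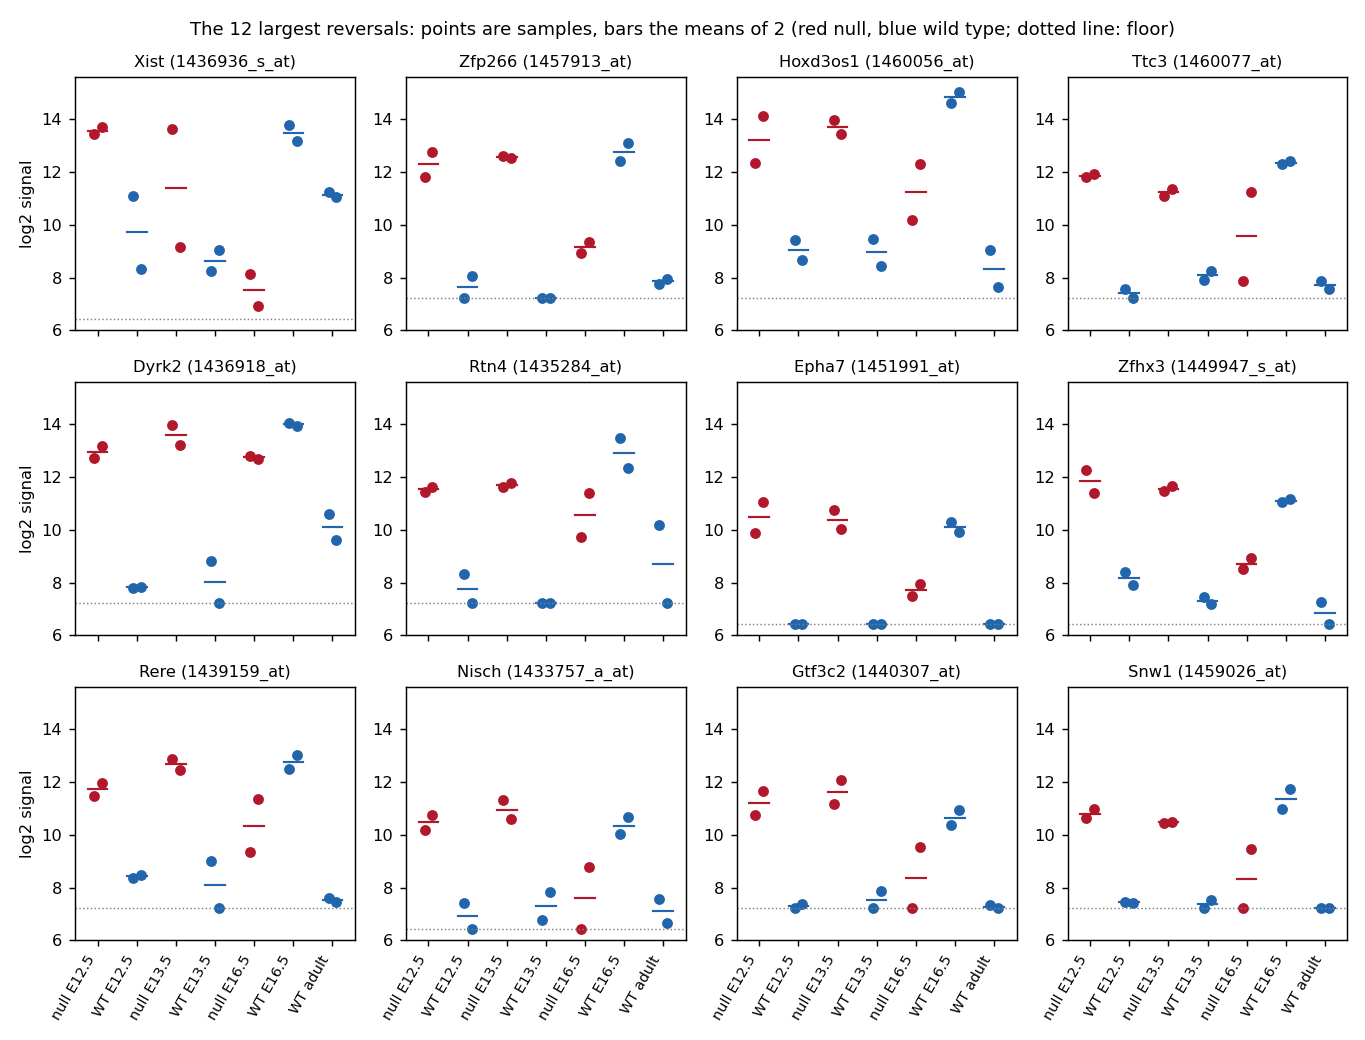
Log2 signal of the 12 members with the largest reversal in every sample, as points, with the mean of each group of 2 as a bar, null in red and wild type in blue, and the floor dotted. In all 12 panels the early null means lie above the early wild type means and the E16.5 null mean below the E16.5 wild type mean; one null E13.5 sample of Xist and the spread of null E16.5 samples stand out.

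Close to the thresholds the rule separated probe sets that hardly differed. At E12.5 the members nearest the threshold were Pde7a (2.00), Zdhhc21 (2.01) and Ank3 (2.03), and just outside were Kcnq1ot1 1459443_at (1.998), Psmd9 (1.996) and Ccdc58 (1.946). At E13.5 the nearest members were Abhd17b (2.00), Sox11 1436790_a_at (2.01) and Sbno1 (2.01), and outside were Slc38a2 (1.985), Fbxw7 (1.983) and Ddx3x (1.980). At E16.5 they were Skp2 (-1.001), Abcc9 (-1.005) and Phf21a (-1.01), and outside Mtss1 (-0.99), Kirrel3 (-0.99) and Cramp1l (-0.98).

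Features the rule did not use were then described. Member genes spanned a median of 61.2 kb of genome (quartiles 28.6 and 130.7 kb), against 20.3 kb over all 18032 genes with a span, and 47.7 kb over the 217 genes with a span that were higher in null early and at E16.5 too. A gene with more probe sets has more chances to hold a member. The genes compared, here and for the promoters below, were not matched for this or for passing the filter. By annotation 123 were protein coding, 7 long noncoding and 1 a transcribed pseudogene. Probe sets designed on an expressed sequence tag made up 70.2% of members, against 50.2% of all named probe sets and 51.8% of the 226 probe sets higher at all stages. Members also lay more often on 430B, 58.2% against 41.7%, but within 430A the tag share was 52.5% against 31.7% and within 430B 82.9% against 76.0%.

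Promoter sequence was available from RefSeq (GRCm38.p6) for 106 of the 131 genes, as 150 windows of 250 bases before to 50 after a start. The 4 motifs named below were searched on both strands, and 3 windows are shown: Zfp266 as the largest autosomal reversal, Ttc3 as a gene with 2 members, and A930005H10Rik as the single gene with the posterior HOX motif. A930005H10Rik, a noncoding RNA picked here for its motif, differed by at least 4.09, at least 3.53 and -2.19 or lower. Capitals mark TGACGTCA in Zfp266 (minus strand, chr9:20521370-20521669), CCAAT in Ttc3 (plus strand, chr16:94370489-94370788) and TTTACGA in A930005H10Rik (minus strand, chr3:115888010-115888309).
Zfp266: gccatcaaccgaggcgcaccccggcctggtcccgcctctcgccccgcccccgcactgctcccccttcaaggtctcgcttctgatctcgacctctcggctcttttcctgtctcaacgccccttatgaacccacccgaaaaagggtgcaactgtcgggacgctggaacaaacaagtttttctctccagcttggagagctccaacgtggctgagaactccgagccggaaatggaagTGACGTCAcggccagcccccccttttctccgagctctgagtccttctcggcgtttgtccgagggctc
Ttc3: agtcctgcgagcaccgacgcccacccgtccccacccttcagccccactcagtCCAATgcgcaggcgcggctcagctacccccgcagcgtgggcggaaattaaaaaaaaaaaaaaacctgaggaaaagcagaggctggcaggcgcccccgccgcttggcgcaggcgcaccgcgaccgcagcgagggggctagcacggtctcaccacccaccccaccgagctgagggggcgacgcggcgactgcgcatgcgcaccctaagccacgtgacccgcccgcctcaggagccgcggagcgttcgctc
A930005H10Rik: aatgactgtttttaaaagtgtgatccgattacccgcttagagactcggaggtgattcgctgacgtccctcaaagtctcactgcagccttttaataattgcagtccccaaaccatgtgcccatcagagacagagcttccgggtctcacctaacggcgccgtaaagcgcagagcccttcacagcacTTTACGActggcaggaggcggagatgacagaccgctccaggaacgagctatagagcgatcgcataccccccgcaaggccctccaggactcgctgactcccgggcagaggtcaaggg

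TTTACGA, a core of the motif of posterior HOX proteins, was in 3 member windows, all overlapping windows of A930005H10Rik, which is 0.943% of member genes, against 0.759% of 14368 measured genes. TGACGTCA, the site of CREB and ATF factors, was in the windows of 6 genes (5.66%, against 2.94%). CCAAT, the box bound by NF-Y, was in 55 genes (51.9%, against 42.0%), and TATAAA was in 13 (12.3%, against 11.5%). None of these 4 motifs overlaps another in its letters. The median GC content of the windows was 63.3%, against 58.3% over all. A match describes the letters only, and the absence of one says nothing of a factor.

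The remaining probe sets of the member genes were not used by the rule and were tested, although they come from the same samples and may share sequence with the members, so they are no independent evidence. There were 401, on 129 genes, of which 334 on 126 genes passed the filter (a mean log2 above the design's median in at least 1 group). The reversal contrast was called with limma at an adjusted p under 0.05 over 30564 probe sets. It was called lower late in 104 of the 334 (31.1%), against 13.3% of all tested, and higher late in 8 (2.40%), against 7.02%; 222 had no call. By gene, 58 of the 126 had at least 1 probe set called lower late, against 15.2% of all genes with a tested probe set (2142 of 14123, the members left out). A gene with more probe sets has more chances of a call, and the mean number tested was 2.65 in the member genes and 1.72 over all genes. Of the member genes, 7 had one called higher late, 1 of them (Enah) had both, and 62 had no call. The median reversal was -0.71, against -0.12 over all tested, far from the members' -4.74. After median centring of each array the split was 74 lower and 26 higher in these probe sets and 2774 lower and 4566 higher over all, against 4071 lower and 2147 higher before, and the median of all tested moved to 0.28. After quantile normalization the split was 81 lower and 8 higher in these probe sets and 3046 lower and 2465 higher over all. The lead of lower calls in these probe sets therefore held under centring, while over all probe sets it turned.

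At the single stages, limma called 95 of the 334 higher in null at E12.5 (28.4%, against 12.4% of all tested) and 90 at E13.5 (26.9%, against 14.4%), while 9 were called lower at E12.5 (2.69%, against 6.19%) and 16 at E13.5 (4.79%, against 8.97%). At E16.5, 86 were called lower (25.7%, against 19.2%) and 41 higher (12.3%, against 15.9%). After median centring 77 were called higher and 22 lower at E12.5 and 83 higher and 16 lower at E13.5. At E16.5 centring left 67 lower (20.4%, against 13.3% of all tested) and 53 higher (16.2%, against 21.2%), with a median of -0.02. Over all probe sets centring gave 2840 higher and 3507 lower at E12.5, against 3793 and 1892 before, and 6403 higher and 4011 lower at E16.5, against 4856 and 5872 before, so the direction with more calls turned at both stages. The members' sign pattern, above 0 at both early stages and below 0 at E16.5, was found in 94 (28.1%), against 14.7% of all tested. With the log2 actin ratio as a covariate 24 were called higher for E12.5 (7.19%, against 1.96% of all tested) and 22 for E13.5 (6.59%, against 2.51%). With that covariate the reversal was called lower late in 82 (24.6%, against 8.82% of all tested) and higher late in 4 (1.2%, against 4.54%). Without null E16.5 replicate 1 the median reversal of these probe sets was -0.76, against -0.12 over all tested. Without wild type E16.5 replicate 1 it was -0.68, against -0.13. The median E12.5 difference was 0.52 without null replicate 2, against 1.8e-15 over all tested. It was 0.34 and 0.41 without wild type replicates 1 and 2, against -0.03 and -0.01. At E13.5 the median was 0.33 without null replicate 1, against 0.01. At E16.5 it was -0.27 without null replicate 2, against -0.19, and -0.32 without wild type replicate 1, against -0.22. Fewer probe sets were called in each of these runs than in the main fit, both here and over all tested.

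**Figure D4:**
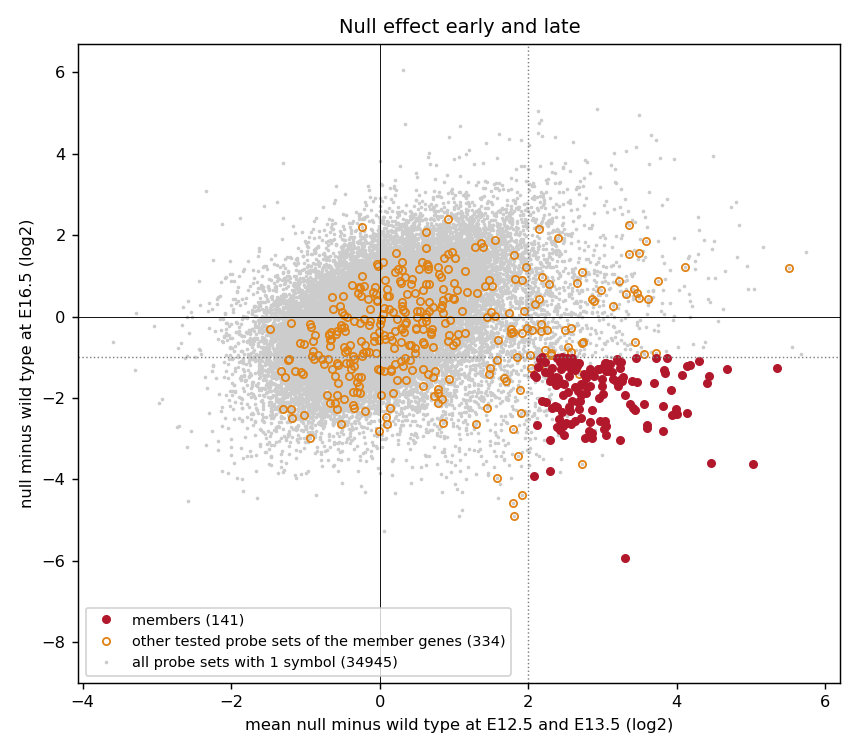
Null minus wild type at E16.5 (vertical, log2) against its mean at E12.5 and E13.5 (horizontal, log2) for all 34945 named probe sets in grey, the 334 other tested probe sets of the member genes as orange rings and the 141 members in red; dotted lines mark thresholds of 2 and -1. The members fill the lower right by construction, and the orange rings spread over the whole cloud with a tail towards the members.

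Rbm39 had 5 of 8 other tested probe sets called lower late. The largest was 1446148_x_at, which read 368 and 290 in null against 27.3 and 21.9 in wild type at E12.5, 350 and 325 in null against 82.4 and 127 in wild type at E13.5, and 50.2 and 117 in null against 2660 and 3320 in wild type at E16.5. Its reversal was -6.70 ± 0.42 (SE, limma adjusted p 2.75e-06), and those of 1446147_at, 1442745_x_at, 1442744_at and 1439316_at were -6.37, -6.29, -5.55 and -5.28. Each of these probe sets had an early wild type sample under the floor, and some had null E16.5 samples there. These reversals are therefore bounds, at least as large in size as printed. Both wild type E12.5 samples of 1446148_x_at were floored and so had no spread, which makes its SE and p too small. In each of the 5 called probe sets the wild type E16.5 samples stood above all 12 others. For 1446148_x_at, 1442745_x_at and 1442744_at wild type E16.5 was the only embryonic group with a mean above the filter, 8.84 log2 on 430A. Among embryonic groups these thus passed only through the group whose height enters the call. The probe sets 1426671_a_at, 1443988_at and 1420982_at, with reversals of -0.68, -0.57 and -0.51, had no call, so probe sets of this gene disagreed in size.

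Readings for 1446147_at were 529 and 461 in null against 66.1 and 121 in wild type at E12.5, 434 and 437 in null against 179 and 171 in wild type at E13.5, and 90.2 and 353 in null against 4464 and 4079 in wild type at E16.5. Those for 1442745_x_at were 395 and 434 in null against 15.7 and 23.7 in wild type at E12.5, 328 and 197 in null against 9.6 and 39.2 in wild type at E13.5, and 4.3 and 55.8 in null against 1812 and 1763 in wild type at E16.5. Both showed null above wild type early and far below it late. For 1442744_at the readings were 298 and 269 in null against 3.7 and 0.6 in wild type at E12.5, 233 and 231 in null against 1.1 and 29.4 in wild type at E13.5, and 7.7 and 68.9 in null against 1464 and 1249 in wild type at E16.5. For 1439316_at they were 1235 and 1859 in null against 653 and 122 in wild type at E12.5, 2173 and 1439 in null against 610 and 703 in wild type at E13.5, and 363 and 667 in null against 5632 and 4952 in wild type at E16.5. Genotypes were separate at each stage in these as well.

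Clcn3 had 3 of 4 called lower late. Its 1438366_x_at read 100 and 970 in null against 78.0 and 30.9 in wild type at E12.5, 1456 and 883 in null against 102 and 70.4 in wild type at E13.5, and 471 and 428 in null against 5278 and 5810 in wild type at E16.5 (reversal -6.35 ± 0.88, limma adjusted p 0.00046). Phf21a 1418390_at read 938 and 2500 in null against 235 and 169 in wild type at E12.5, 2022 and 1848 in null against 54.0 and 35.1 in wild type at E13.5, and 543 and 782 in null against 1207 and 1226 in wild type at E16.5 (reversal -4.62 ± 0.49, limma adjusted p 9.23e-05). The E12.5 null samples were far apart in both probe sets. In each, both wild type samples of an early stage were under the floor. Both reversals are therefore bounds, and their SE and p leave out the spread of that group. Sox11 1429372_at read 7670 and 8740 in null against 3274 and 1859 in wild type at E12.5, 6255 and 7646 in null against 1908 and 1929 in wild type at E13.5, and 1557 and 1934 in null against 14274 and 9705 in wild type at E16.5 (reversal -4.55 ± 0.48, limma adjusted p 8.36e-05).

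Among the 12 genes with the largest reversals, 11 had another tested probe set and 7 had one called lower late. For Zfp266, 1 of 3 was called, at -1.46, and its null minus wild type was -0.79 and -0.55 early, so it did not share the early excess of the member. Hoxd3os1 had a single other probe set, at -1.90 with an early difference of -0.89 at E12.5 and 0.20 at E13.5. Ttc3 had 3 of 5 called (-3.49, -3.29 and -2.20), Zfhx3 2 of 4, Nisch 2 of 3, Rtn4 1 of 4 and Gtf3c2 1 of 4. Dyrk2, Epha7, Rere and Snw1 had none called, with reversals between -1.42 (Dyrk2 1428637_at) and 0.89 (Dyrk2 1456502_at). Of the transcription genes 15 of 23 had one called lower late, of the chromatin genes 8 of 15, of the signalling genes 8 of 21 and of the RNA processing genes 10 of 23. Over all genes this share was 15.2%, at fewer probe sets a gene. Whether roles differ in this share was not tested.

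Probe sets called higher late were on 7 member genes. Dcaf7 1429385_at read 2806 and 5537 in null against 4478 and 5096 in wild type at E12.5, 1761 and 4315 in null against 3866 and 2628 in wild type at E13.5, and 4308 and 4162 in null against 881 and 954 in wild type at E16.5 (reversal 2.45 ± 0.51, limma adjusted p 0.00473). Its E16.5 difference, 2.21, had the sign opposite to the member's -1.62. Copa 1415706_at read 13440 and 8457 in null against 8867 and 11302 in wild type at E12.5, 15578 and 14462 in null against 8141 and 5555 in wild type at E13.5, and 18748 and 19292 in null against 5194 and 3946 in wild type at E16.5 (reversal 1.45 ± 0.33, limma adjusted p 0.00874). Null and wild type overlapped at E12.5 in both probe sets, and at E13.5 in that of Dcaf7.

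Ankhd1 1455759_a_at read 3223 and 2499 in null against 1988 and 2080 in wild type at E12.5, 2459 and 3271 in null against 1157 and 1053 in wild type at E13.5, and 2001 and 2557 in null against 535 and 347 in wild type at E16.5 (reversal 1.47 ± 0.49, limma adjusted p 0.0493). Rnps1 1448324_at read 6820 and 8673 in null against 7312 and 6896 in wild type at E12.5, 6798 and 8397 in null against 5972 and 6206 in wild type at E13.5, and 5587 and 6201 in null against 2105 and 1892 in wild type at E16.5 (reversal 1.35 ± 0.33, limma adjusted p 0.0114). Both were higher in null at E16.5 without overlap. A further Rnps1 probe set, 1438267_x_at, read 13593 and 15716 in null against 17064 and 15463 in wild type at E12.5, 10923 and 15776 in null against 16883 and 15065 in wild type at E13.5, and 10634 and 10184 in null against 5869 and 6537 in wild type at E16.5 (reversal 0.97).

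Enah 1455375_at read 3087 and 3080 in null against 2952 and 2651 in wild type at E12.5, 2933 and 2004 in null against 3211 and 2450 in wild type at E13.5, and 1946 and 2197 in null against 1141 and 632 in wild type at E16.5 (reversal 1.32), while Enah 1424800_at had a reversal of -3.46. Cdc40 1453342_at read 9774 and 11121 in null against 16385 and 15925 in wild type at E12.5, 9411 and 9354 in null against 16601 and 13121 in wild type at E13.5, and 18770 and 14177 in null against 14038 and 9675 in wild type at E16.5 (reversal 1.13). These 2 genes thus had probe sets of opposite reversal. Sf3b3 1415985_at read 8300 and 6385 in null against 5691 and 6662 in wild type at E12.5, 10963 and 9016 in null against 5007 and 4960 in wild type at E13.5, and 10675 and 11326 in null against 4510 and 2624 in wild type at E16.5 (reversal 1.06).

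**Figure D5:**
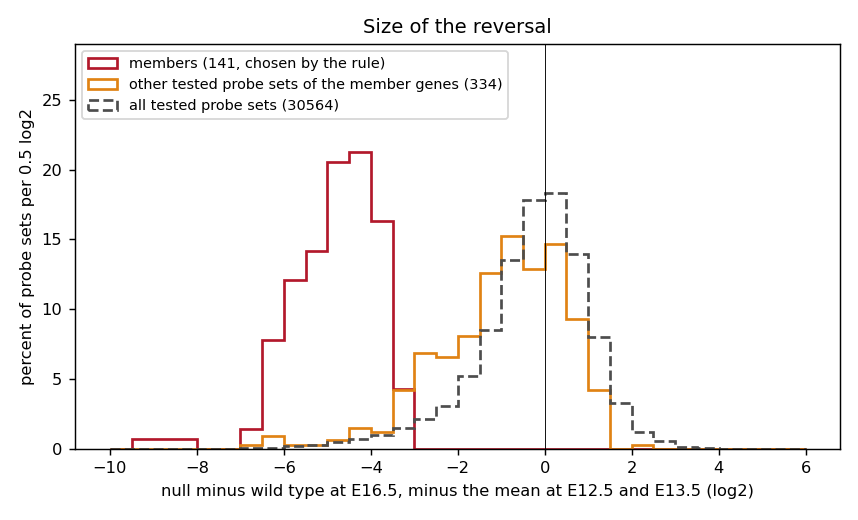
Percent of probe sets per bin of 0.5 log2 against the reversal, for the members (red, placed there by the rule), the 334 other tested probe sets of their genes (orange) and all 30564 tested probe sets (dashed grey). The orange curve has a median of -0.71, between the -0.12 of all tested and the members' -4.74, and reaches down to -6.70.

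Lists of related genes, read by 1 probe set per gene and without the member probe sets, give the surroundings under the deposited scaling; no other scaling was run for them. Of 16 tested chromatin remodellers 6 were called lower late by limma (Smarcc1, Arid2, Atrx, Arid1b, Arid1a and Baz2a) and 1 higher late (Chd2). Smarcc1, a SWI/SNF subunit, differed by 3.34, 3.85 and 0.07, so that its early excess was gone at E16.5 without turning. Of 14 demethylases 3 were called lower late and 1 higher late (Kdm3b). Kdm6b, which removes methyl groups from histone H3 lysine 27, differed by 5.23, 6.10 and -0.92 with a reversal of -6.58 (limma adjusted p 0.000547), just outside the rule.

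Of 14 methyl and acetyl transferase genes and their partners 5 were called lower late and 0 higher late, and the median reversal over the list was -0.43. Of 19 nuclear speckle RNAs and factors 5 were called lower late, among them Son at -3.80 and the noncoding RNA Malat1 at -2.48, and 2 higher late, Neat1 and Ddx17, with a median of -0.36. Ubiquitin ligases had 4 of 14 called lower late, led by Ube3a at -5.02, and 0 higher late. In the kinase list Gsk3b alone, at -2.60, was called, of 10 tested. Over all probe sets tested, 13.3% were called lower late and 7.02% higher late, under the deposited scaling, which holds for all list counts here. Hox genes other than the targeted pair had 8 of 18 called lower late (Hoxa5, Hoxb9, Hoxa3, Hoxc4, Hoxc8, Hoxb5, Hoxd10 and Hoxd9) and 0 higher late. Of the cell type lists, 6 had calls in both directions: nephron progenitor markers had 1 lower late (Wt1) and 2 higher late (Cited1 and Crym) of 10, endothelium 2 and 2 of 15, proximal tubule 1 and 3 of 14, ureteric epithelium 2 and 3 of 14, renal stroma 3 and 1 of 17, and podocytes 1 and 1 of 9. Another 5 had lower late calls and 0 higher late: erythroid cells 3 of 7, muscle and cartilage 2 of 5, macrophages 1 of 12, early nephron 1 of 9, and adrenal and gonad 1 of 5. The neuron list had 0 calls of 5 and the immediate early list 0 of 8, heat shock genes had 1 lower late of 8, and proliferation genes had 2 higher late of 12 (Aurka and Mcm5).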

How the data were processed

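Kidney RNA of 14 samples was measured on 28 arrays. The authors deposited a linear MAS5 signal for each probe set, per the submitters' processing notes; settings and detection calls are not given in the sources used here, and the 2 arrays of adult replicate 2 carry the chip type of the other design in their run records. The precision is limited by 2 samples per group, and with null samples of 1 embryo and pooled wild type samples p-values measure only the spread between these samples.

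Signals under the 20th percentile of a design were set to it and log2 was taken. Symbols come from the platform annotation of the arrays, which can be old, and probe sets with no or several symbols are not named. With limma 3.58.1 (R 4.3.3) group means were fitted to the 14 arrays of each design, with eBayes and a trend, over probe sets with a mean log2 above the design's median (50th percentile) in at least 1 group. P-values are two-sided, adjusted by Benjamini-Hochberg over 30564 probe sets. On simulated data of that many probe sets, the reversal contrast recovered 34 of 100 true changes of -2 and 89 of 100 of -4. It made 6 false calls. The simulated noise was normal and independent, with no floor and no shift shared by an array. The false calls therefore do not give the error rate of the real arrays, where genotype goes with scan day and pooling.

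The members, the gene lists and the roles were chosen with earlier results of these data known. Values per sample are given for the 12 largest reversals, members on a list, members whose other probe sets were called (up to 8 in each direction) and probe sets next to a threshold (differences only), except 1 member on a list that is not reported here; others are named by role. Alternatives were scaling, floor, offset, filter, trend, blocks, a covariate, the rule's thresholds and leaving out each embryonic replicate. Tables and figures were made with Python 3.11.15.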

Additional observations from a re-analysis of the deposited data

Results flagged for a closer look

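The null effect at E16.5 differed from its mean at E12.5 and E13.5, by limma's contrast of the difference itself, in some of the 334 other tested probe sets of the member genes, 104 lower late and 8 higher late. The largest lower late were 5 probe sets of Rbm39, 1446148_x_at (-6.70), 1446147_at (-6.37), 1442745_x_at (-6.29), 1442744_at (-5.55) and 1439316_at (-5.28), with Clcn3 1438366_x_at (-6.35), Phf21a 1418390_at (-4.62) and Sox11 1429372_at (-4.55). Several of these reversals are bounds set by the floor. Some of the Rbm39 probe sets passed the filter, among embryonic groups, through wild type E16.5 alone. The higher late ones were Dcaf7 1429385_at (2.45), Ankhd1 1455759_a_at (1.47), Copa 1415706_at (1.45), Rnps1 1448324_at (1.35), Enah 1455375_at (1.32), Cdc40 1453342_at (1.13), Sf3b3 1415985_at (1.06) and Rnps1 1438267_x_at (0.97). On each of these 7 genes the member probe set differed in the other direction. No group holds enough samples for a test of single outlying samples.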

How the results depend on the processing

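The rule selected 69 probe sets with the floor at the 40th percentile, 84 with an offset in place of the floor, 265 with thresholds of 1.5, 1.5 and -1, 83 with 2, 2 and -1.5, and 23 when every sample had to pass. It gave 101 to 186 when a replicate was left out, 123 after quantile normalization and 95 after median centring, the last 2 sharing 101 and 81 with the members. The members' adult median of 7.76 became 8.71 with the higher floor and 8.36 with the offset. In other probe sets of the member genes, lower late calls ran between 65 and 105 and higher late calls between 1 and 9 over left-out replicates. Higher late calls were 26 after median centring, 4 with no trend and 4 with the actin covariate. Over all probe sets lower late calls ran between 2322 and 4117 and higher late calls between 897 and 2287 over left-out replicates; with the actin covariate they were 2697 and 1388, and after median centring higher late calls were 4566. Over left-out replicates E12.5 calls of these genes ran between 53 and 97, E13.5 calls between 50 and 89, and E16.5 calls between 44 and 89; the actin covariate gave 24 for E12.5 and 22 for E13.5, and the cause was not tested. With the replicate number as a block, lower late calls were 100 and higher late calls 6; deviations of same-numbered samples correlated between -0.35 and 0.18 on 430A and -0.03 and 0.05 on 430B, so the samples share only a number. Scan day as a random block gave 96 and 6, and quantile normalization 81 and 8. Of 374 reversal values of named members under the alternatives, 320 moved by less than the replicate spread and 0 changed sign. Of 400 for named other probe sets, 335 kept their call, 65 lost it and 0 changed direction. The members were chosen by these values, and the other probe sets were named for the largest called reversals. A kept sign or direction was thus nearly set by the choice, and nothing is read from it. Scan day as a fixed block could not be fitted, since at no stage do null and wild type share a day.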

Other observations

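The nuclear factor I genes, DNA-binding factors of a small family, held no member, but 3 of 4 (Nfib, Nfix and Nfia) were called lower late by limma under the deposited scaling, against 13.3% of all tested probe sets. Nfib read 4766 and 3151 in null against 143 and 198 in wild type at E12.5, 7100 and 4351 in null against 139 and 124 in wild type at E13.5, and 1174 and 2438 in null against 1048 and 1050 in wild type at E16.5. Nfix read 914 and 1980 in null against 59.0 and 128 in wild type at E12.5, 2551 and 1903 in null against 233 and 26.4 in wild type at E13.5, and 2500 and 5546 in null against 3112 and 4106 in wild type at E16.5. At E16.5 both Nfib null samples were still above wild type, while the Nfix groups overlapped. The family was listed with results of these data known.

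Endothelial markers, 16 of 16 measured, summed to 43861 and 53841 in null against 19039 and 16931 in wild type at E12.5, and to 58574 and 61785 in null against 21897 and 21575 in wild type at E16.5, so this list kept its direction where the members turned. Erythroid markers, 8 of 11 measured, summed to 57192 and 55066 in null against 66684 and 66319 in wild type at E12.5, and to 8552 and 11645 in null against 24468 and 31760 in wild type at E16.5.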
